A study of Rattus norvegicus with 12 samples.

Results

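The genes described here encode 10 oxygen-dependent demethylases of chromatin, read from hippocampal mRNA of male rats: the histone lysine demethylases Kdm2a, Kdm4a, Kdm4b, Kdm4c, Kdm5a, Kdm5b and Kdm6b and the DNA demethylases Tet1, Tet2 and Tet3. They were chosen by gene symbol, and all 10 were found among 26949 genes of the RNA table and were tested. The libraries came from rats kept for 4 weeks in normoxia (control, 3 libraries) or exposed for 4 weeks to chronic intermittent hypoxia (CIH, 3 libraries), a regime of repeated low-oxygen episodes used to model sleep apnoea. Strain, age, oxygen levels and cycle times are not stated in the labels. Nor is it stated that each library is its own animal, so every p-value and interval measures the spread between these libraries, which may be technical. The comparison asked whether CIH changes the mRNA level of the enzymes that remove methyl groups from histones and DNA.

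These enzymes share one chemistry. Each holds an iron atom in its catalytic domain and uses molecular oxygen and 2-oxoglutarate to oxidise a methyl group, with succinate as a by-product. In the JmjC histone demethylases the oxidised methyl group leaves the lysine as formaldehyde, and in the TET enzymes it stays on the cytosine as hydroxymethylcytosine, a base that is abundant in neurons. Because oxygen is a substrate, their activity can fall when oxygen is low, and transcription of several of them, Kdm4b and Kdm4c among them, is known to be induced by hypoxia in cultured cells. The libraries measured mRNA only, not enzyme activity, histone marks or cytosine methylation.

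No demethylase gene was called different between CIH and control. By edgeR's quasi-likelihood test over 17935 genes, 0 of the 10 passed an adjusted p of 0.05, against 0.00% of all tested genes. At an unadjusted p under 0.05 there were 0 of 10, against 1.78% of all genes, and DESeq2 also called 0 of the 10 (0.0372% of the genes to which it gave an adjusted p). The log2 fold changes, CIH over control, ran from -0.05 for Tet2 to 0.11 for Kdm5a, which is 0.963-fold to 1.08-fold. Their 95% intervals all included 0 and together ran from -0.36 (Kdm4a) to 0.41 (Tet1), so the interval bound farthest from no change was 1.33-fold higher, for Tet1, and on the lower side 0.780-fold, for Kdm4a. For each gene a doubling or a halving lay outside the interval. The CIH and control libraries overlapped for all 10, where 5.70% of all tested genes had groups that did not overlap (3.05% higher in CIH and 2.65% lower). The direction was higher for 7 and lower for 3, with a median of 0.06, beside 50.6% higher and a median of 0.00 over all genes.

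**Figure D1:**
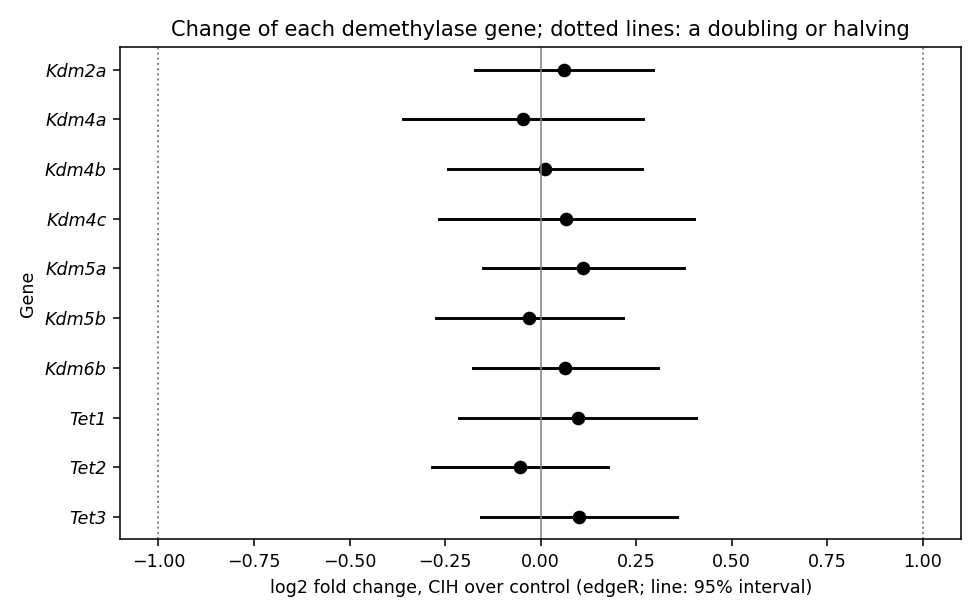
Log2 fold change of each demethylase gene (point) with its 95% interval (line) on the horizontal axis, CIH over control, from edgeR on 3 libraries per group; dotted lines mark a log2 change of -1 and 1. All 10 intervals include 0 and lie between -0.36 and 0.41.

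The genes were well covered. Each had 543 to 4332 estimated counts per library, from library totals of 17170943 to 21941173, and the standard error (SE) of the log2 fold change was 0.10 to 0.14, beside a median of 0.20 over all genes. A missed threshold does not show that a gene was equal in the groups, and the interval gives the range of changes that the libraries allow. Bulk tissue was measured, so fewer cells of a type and less RNA per cell cannot be told apart.

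Kdm2a acts on lysine 36 of histone H3, and Kdm4a, Kdm4b and Kdm4c act on lysines 9 and 36. Kdm2a (gene ID 361700), which removes the lower methylation states of lysine 36 and is recruited to CpG islands, stood at 151, 140 and 145 CPM (counts scaled to the size of the library) in control replicates 1, 2 and 3 and at 141, 154 and 159 CPM in CIH replicates 1, 2 and 3. CIH replicates 2 and 3 were the highest of the 6 libraries, and CIH replicate 1 lay among the controls. The log2 fold change was 0.06 (SE 0.10; 95% interval -0.17 to 0.29; edgeR adjusted p = 1.00).

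Kdm4a, Kdm4b and Kdm4c encode close relatives that remove the trimethyl mark of lysine 9, a mark of silent chromatin, and also act on lysine 36. Kdm4b (gene ID 301128) stood at 142, 135 and 126 CPM in control and 125, 147 and 133 CPM in CIH. Both extremes were CIH libraries, replicate 1 at the bottom and replicate 2 at the top, and the group means were nearly equal. Its log2 fold change was 0.01 (SE 0.11; 95% interval -0.24 to 0.26; edgeR adjusted p = 1.00). Kdm4c (gene ID 298144) stood at 34.1, 28.4 and 30.8 CPM in control and 32.7, 27.9 and 37.1 CPM in CIH, again with both the lowest and the highest library in CIH. Its log2 fold change was 0.07 (SE 0.14; 95% interval -0.27 to 0.40; edgeR adjusted p = 1.00). Kdm4c was the one member whose deposited counts were not whole (568.59 to 733.92), which marks reads shared out between features, so its counts are less certain than those of the others.

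Kdm4a (gene ID 313539) stood at 74.1, 65.3 and 66.4 CPM in control and 55.6, 70.8 and 72.9 CPM in CIH: CIH replicate 1 was the lowest of the 6, and the other CIH libraries lay within the control range. Its log2 fold change was -0.05 (SE 0.13; 95% interval -0.36 to 0.27; edgeR adjusted p = 1.00), and it was 0.06 without CIH replicate 1 and 0.01 without control replicate 1. CIH replicate 1 also had the lowest score for dentate granule cell markers (-1.31, against -0.14 and 0.50 in the other CIH libraries and -0.04 to 0.76 in control). With that score as a covariate the log2 fold change of Kdm4a was 0.09. The same library was lowest for choroid plexus (-1.28) and CA pyramidal markers (-0.52). It was highest for cortex (0.78) and for striatum and thalamus (0.97). These differences in makeup cannot be told apart in their relation to Kdm4a. In TPM, a level scaled to transcript length as well, the order of the libraries differed. CIH replicate 2 was the lowest at 29.4 TPM, and CIH replicate 1 stood at 30.9 TPM. Both lay under every control (34.0 to 40.2 TPM), and CIH replicate 3 stood at 39.6 TPM.

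Kdm4b and Kdm4c are shown with sequence because their upstream windows hold CACGTG, which includes the core letters that hypoxia-inducible factors read. The 250 bases before each RefSeq start site (GRCr8 build, used only for sequence, since the submitters' processing notes list the Rnor_6.0 build) were searched on both strands for ACGTG and GCGTG. The palindrome CACGTG, which is ACGTG on both strands and also the letters of the E-box read by many other factors, was counted as 1 place. The stretches shown lie in Kdm4b at chr9:1245659-1245688 and in Kdm4c at chr5:93146816-93146845 and chr5:93146848-93146877, all on the plus strand. Capitals mark the palindrome, whose first base lies 232 bases before the start in Kdm4b and 209 and 177 bases before it in Kdm4c.
Kdm4b: ccggtcaccaggCACGTGagtgggtgccgg
Kdm4c, first place: agtttagaaatcCACGTGacccagagagcg
Kdm4c, second place: cggccccgcggtCACGTGgcggatcgtgaa
CACGTG is found in 5.59% of 33469 such windows of all genes, and ACGTG or GCGTG in 36.7%. Each of these motifs contains a CpG. The Kdm4b and Kdm4c windows hold 23 and 27 CpG, against a median of 5 over all windows. The shares in windows equally rich in CpG were not computed. With GCGTG added, Kdm4c held 4 places and Kdm4b 3, while the Kdm4a window held none. Beside these letters, neither gene's mRNA differed between the groups beyond the spread of the libraries. A match is a description of the letters and not of binding.

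Of the other members, Kdm5b held 2 places, at 225 and 14 bases before the start, Tet2 held 1 at 114 bases, and Tet1 held 1 in each of 2 of its 3 windows. No place was found in Kdm2a, Kdm5a, Kdm6b or the 4 windows of Tet3. Counted by gene, the members thus split evenly, 5 with a place and 5 without, over 15 windows. The share over all genes given above is per window, so it is not a background for this count. Windows 1 and 2 of Tet3 overlap almost entirely.

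Kdm5a and Kdm5b remove the di- and trimethyl marks of lysine 4, which sit at active promoters. Kdm5a (gene ID 312678) has been described as an oxygen-sensitive member of the family. It stood at 83.7, 70.3 and 70.4 CPM in control and 84.9, 75.9 and 81.7 CPM in CIH. Control replicate 1 lay within the CIH range, while the other controls lay under every CIH library. Its log2 fold change, 0.11 (SE 0.11; 95% interval -0.15 to 0.38; edgeR adjusted p = 1.00), was the farthest from 0 of the 10. Without control replicate 1 it was 0.20, and over all 15 alternatives the adjusted p was 0.80 to 1.00.

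Kdm5b (gene ID 304809) stood at 96.1, 108 and 102 CPM in control and 105, 103 and 91.5 CPM in CIH. The groups overlapped, with the highest library in control and the lowest in CIH, and the log2 fold change was -0.03 (SE 0.10; 95% interval -0.27 to 0.22; edgeR adjusted p = 1.00). Kdm5b was 53.5% to 61.9% of the summed TPM (a level scaled to transcript length and to the library) of Kdm5a and Kdm5b in CIH and 56.5% to 61.9% in control, so the balance of these lysine 4 demethylases overlapped between the groups.

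Kdm6b (gene ID 363630) removes methyl groups from lysine 27 of histone H3, the mark set by Polycomb, and is induced by inflammatory and developmental signals. It stood at 93.3, 85.7 and 78.2 CPM in control and 91.5, 86.9 and 90.5 CPM in CIH. The CIH libraries lay within the control range. The log2 fold change was 0.06 (SE 0.10; 95% interval -0.18 to 0.31; edgeR adjusted p = 1.00), and it was 0.00 without control replicate 3, the lowest library, and 0.13 without control replicate 1, the highest.

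The TET genes oxidise methylcytosine in DNA, the first step of active DNA demethylation. Tet3 (gene ID 680576) stood at 213, 195 and 178 CPM in control and 216, 205 and 206 CPM in CIH. Control replicate 1 lay within the CIH range, and control replicates 2 and 3 lay under it. Its log2 fold change was 0.10 (SE 0.11; 95% interval -0.16 to 0.36; edgeR adjusted p = 1.00). Without control replicate 3 it was 0.04, and without control replicate 1 it was 0.17.

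Tet2 (gene ID 310859), the member without a DNA-binding CXXC domain of its own, stood at 78.8, 75.7 and 76.6 CPM in control and 80.9, 70.2 and 71.6 CPM in CIH. CIH replicates 2 and 3 lay under all controls, but CIH replicate 1 was the highest library. Its log2 fold change was -0.05 (SE 0.10; 95% interval -0.28 to 0.18; edgeR adjusted p = 1.00). Tet1 (gene ID 309902), which binds CpG-rich DNA through a CXXC domain, stood at 33.9, 27.1 and 28.3 CPM in control and 33.6, 28.7 and 33.2 CPM in CIH. Its highest library and its lowest were both controls, and the log2 fold change was 0.10 (SE 0.13; 95% interval -0.21 to 0.41; edgeR adjusted p = 1.00). It was 0.20 without control replicate 1 and 0.03 without control replicate 2.

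**Figure D2:**
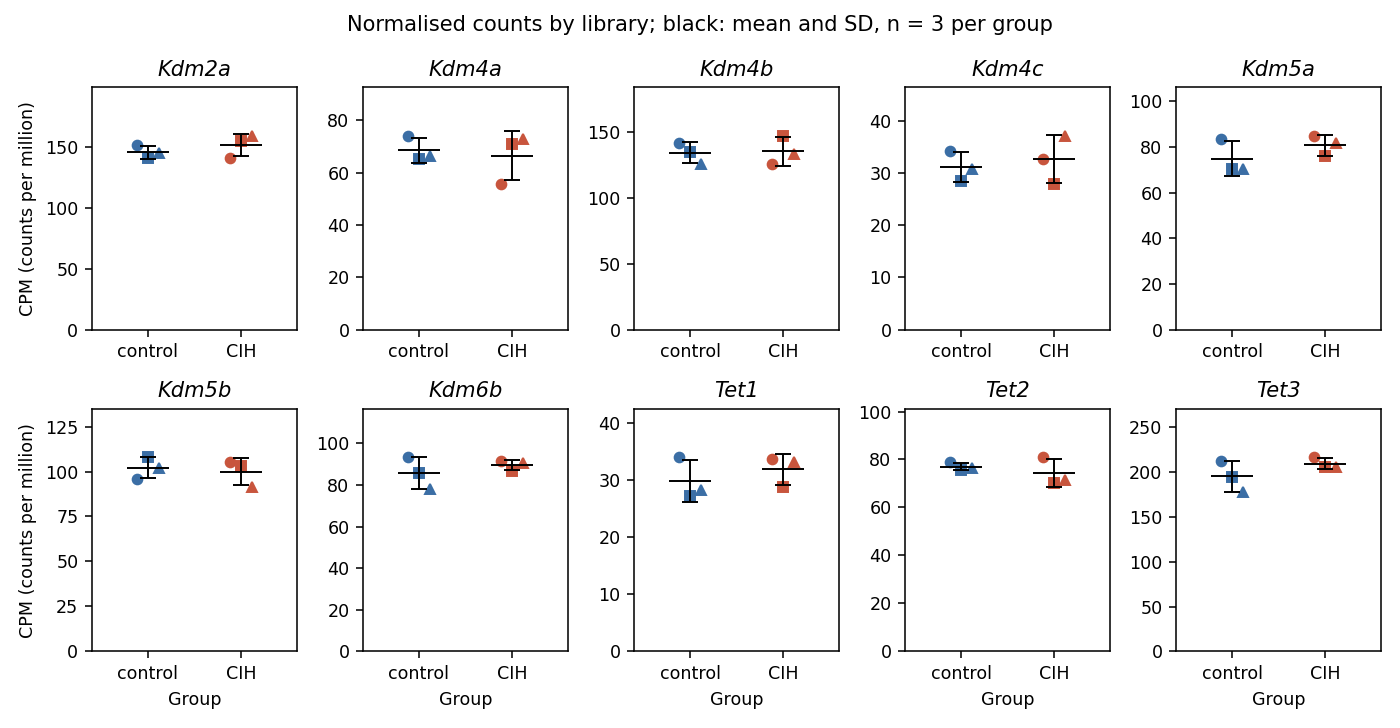
CPM of each demethylase gene (vertical axis, starting at 0) in control and CIH libraries; symbols give replicates 1 (circle), 2 (square) and 3 (triangle), and black bars the mean and SD of 3 libraries. In each of the 10 panels the points of the groups overlap.

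The highest library differed between the genes. It was control replicate 1 for 3 genes, CIH replicate 1 for 3, CIH replicate 3 for 2, and control replicate 2 and CIH replicate 2 for 1 each. Averaged over the 10 genes, the deviation from each gene's mean log2 CPM was 0.08, -0.06 and -0.08 in control replicates 1, 2 and 3 and 0.02, -0.01 and 0.05 in the CIH replicates. The controls thus spanned a wider range than the CIH libraries, with control replicate 1 at one end. Over all tested genes, control replicate 1 was closer to CIH replicate 3 than to its own group. The chi-square per degree of freedom between their counts was 6.98, against 53.5 and 48.1 for control replicate 1 with control replicates 2 and 3. The reason was not tested. Without control replicate 1 the log2 fold change was higher for 9 of the 10 genes, among them Kdm4c (0.14), Kdm5a (0.20), Kdm6b (0.13), Tet1 (0.20) and Tet3 (0.17), and 8 stood above 0. For these 5 named genes the value was over 1.5 times that with all libraries. The same held for Kdm4b (0.0532 against 0.0110) and Kdm2a (0.0902 against 0.0600). Across the 6 libraries the highest CPM of a gene was 1.13 times the lowest for Kdm2a and 1.33 times for Kdm4a and Kdm4c, the least and the most variable members.

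In abundance per length, Tet3 led the 10 genes, with 80.5 ± 8.83 TPM in control and 80.3 ± 9.58 TPM in CIH (SD, n = 3 each), above 86.3% of tested genes. Kdm4b followed at 63.9 ± 6.09 and 65.1 ± 4.65 TPM, and Kdm2a at 42.5 ± 1.55 and 44.0 ± 2.67 TPM. These took ranks 1, 2 and 3 in all 6 libraries, and their ranges over the libraries did not overlap (70.5 to 90.9, 58.1 to 70.5 and 40.7 to 47.0 TPM, with 70.52 the lowest for Tet3 and 70.48 the highest for Kdm4b).

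Kdm4a, Kdm6b and Kdm5b formed a middle tier whose ranges overlapped, at means of 35.0, 32.6 and 30.9 TPM over the 6 libraries. Kdm5a (22.5 TPM), Tet2 (19.9 TPM), Kdm4c (16.0 TPM) and Tet1 (12.7 TPM) came below them, each overlapping its neighbour in that order. Tet1 was the lowest of the 10 in every library, yet lay above 43.9% of tested genes.

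**Figure D3:**
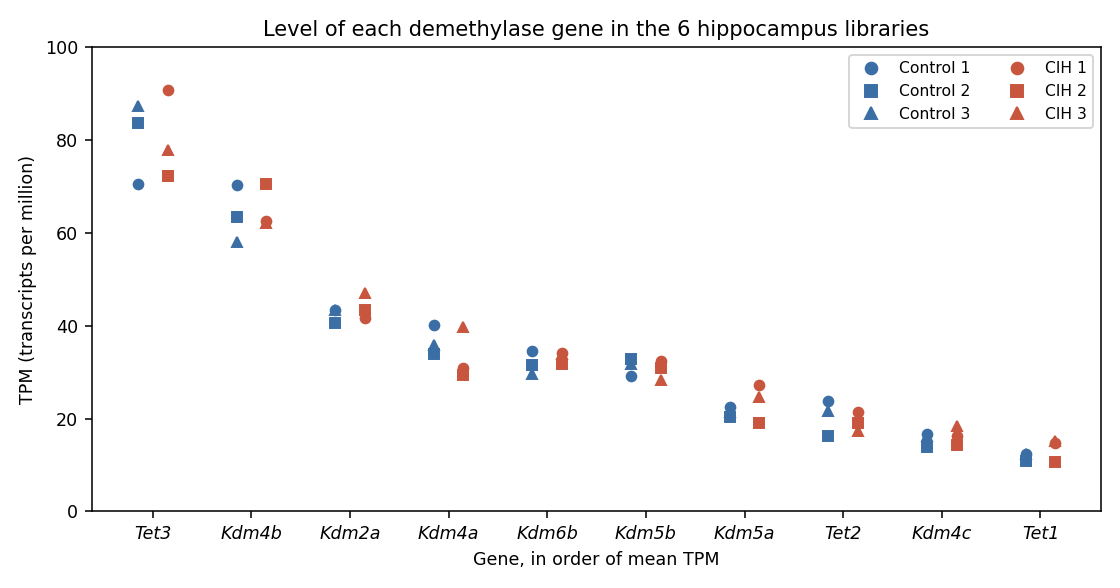
TPM (vertical axis) of the demethylase genes in order of mean level, by library; blue symbols are control and red symbols CIH. Tet3, Kdm4b and Kdm2a stand above the others in all 6 libraries and Tet1 lies lowest.

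Among the members of the TET and of the KDM4 family, 1 gene made up the largest share. Tet3 made up 66.1% to 75.5% of the summed TPM of Tet1, Tet2 and Tet3 in control and 70.6% to 71.5% in CIH. Kdm4b made up 52.7% to 56.9% of the KDM4 sum (Kdm4a, Kdm4b and Kdm4c only) in control and 51.7% to 61.8% in CIH. In both families the CIH range overlapped the control range, and the sums themselves ran from 101.92 to 127.13 TPM for the TET genes and from 109.86 to 127.26 TPM for the KDM4 genes over the 6 libraries.

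The length that the authors' values imply for a gene differed between libraries for some members. TPM are scaled by this length, while the counts were tested without a correction for it. A length that differs between libraries can therefore move the fold changes on counts. This effective length, the count divided by FPKM and by the library total, was computed after seeing the data. For Tet3 it was 5562, 4304 and 3857 bases in control replicates 1, 2 and 3 and 4461, 5167 and 4966 bases in CIH, and for Tet2 it was 6104, 8585 and 6719 bases in control and 7056, 6690 and 7768 bases in CIH. The longest over the shortest was 1.44 for Tet3 and 1.41 for Tet2, and it passed 1.2 for 5 of the 10 genes (also Kdm4a, Kdm5a and Tet1), beside 19.8% of 14000 genes. For Kdm5b it was 1.00. Control replicate 1, whose Tet3 CPM was the second highest, had the longest Tet3 length and so the lowest Tet3 level in TPM.

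The groups overlapped in length for all 10 members, where 5.88% of 14000 genes did not overlap. On the TPM scale the Tet3 log2 fold change was -0.0042 (limma on log2(TPM + 1)) against 0.10 on counts. In the same comparison Kdm4a stood at -0.15 against -0.05 and Tet1 at 0.16 against 0.10. The Kdm4a length was 4382 bases in CIH replicate 2, its lowest library in TPM, and 3367 to 3552 bases in the other libraries. Which transcripts lie behind these lengths was not tested.

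**Figure D4:**
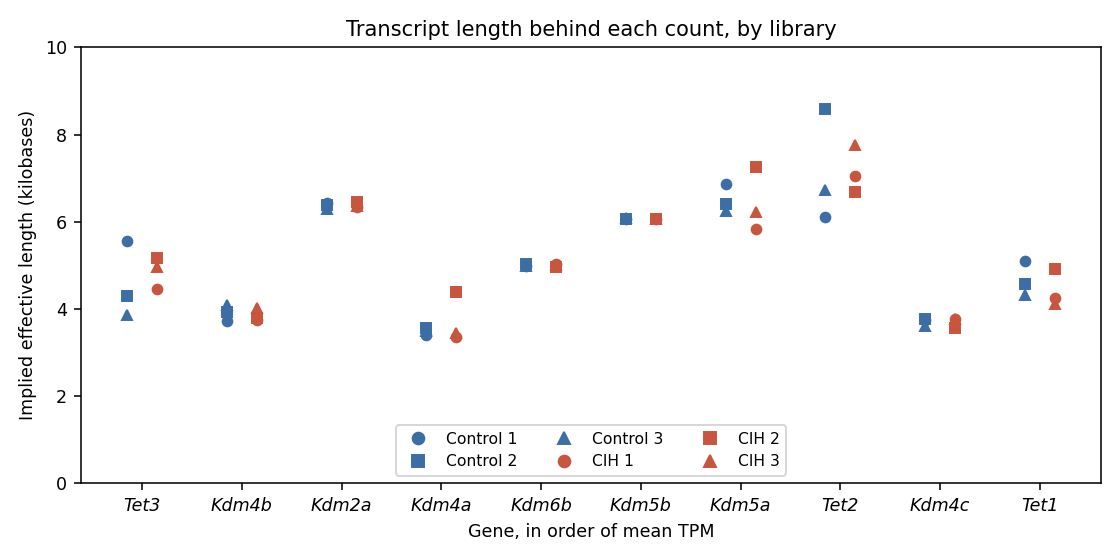
Effective length in kilobases (vertical axis) implied by the deposited count and FPKM of each demethylase gene, by library; blue symbols are control and red symbols CIH. Tet2 and Tet3 spread widest, while the 6 points of Kdm5b coincide.

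Related genes were read from 6 lists, of which 108 of 111 genes were tested. By edgeR 0 of the 108 passed the adjusted threshold (0.00% of all genes), and 2, Uhrf1 and Tfrc, had an unadjusted p under 0.05, which is 1.85% beside 1.78% of all genes. DESeq2 called 0 of them. The groups did not overlap for 7, or 6.48% beside 5.70%. These shares lie close to those of all genes.

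Among 17 other chromatin dioxygenases of this class, 11 were higher and 6 lower, with a median log2 fold change of 0.02. Kdm3a, a lysine 9 demethylase and a known target of hypoxia-inducible factor, stood at 52.8, 47.6 and 45.7 CPM in control and 56.6, 53.6 and 55.8 CPM in CIH. It was the 1 gene of this list whose groups did not overlap, with a log2 fold change of 0.18 (SE 0.10; 95% interval -0.05 to 0.42; edgeR adjusted p = 1.00). The lysine 36 demethylase gene Kdm2b, the paralogue of Kdm2a, stood at -0.14 on that scale (SE 0.10), and the Y-linked Uty, a relative of Kdm6a, stood at 0.14 (SE 0.16). Kdm4d was at 0, 1.80 and 0 CPM in control and 2.52, 0 and 2.17 CPM in CIH, so its presence varied between libraries of one group and no fold change is given.

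Of 20 dioxygenases outside chromatin, 8 were higher and 12 lower, with a median of -0.02. The collagen prolyl hydroxylase genes P4ha2 and P4ha1 had log2 fold changes of -0.12 (SE 0.10) and -0.16 (SE 0.16), the former with groups that did not overlap. P4ha1 stood at -0.02 without control replicate 3 and at -0.30 without control replicate 2. With limma on log2(TPM + 1), P4ha2 stood at -0.05 and P4ha1 at -0.17. The groups also did not overlap for the RNA demethylase gene Alkbh5, which was picked with its values in view and stood at 0.08 (SE 0.09).

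The histone methyltransferase list, the writers that oppose the histone demethylases, had 11 of 20 members higher and 9 lower (median 0.03). The lysine 9 methyltransferase genes Setdb2 and Suv39h2 stood farthest by p, at 0.24 (SE 0.15) and 0.19 (SE 0.17). Without CIH replicate 1 Setdb2 stood at 0.08, and Suv39h2 stood at 0.10 without control replicate 3 and at 0.37 without control replicate 1. With limma on log2(TPM + 1), Setdb2 stood at 0.07 and Suv39h2 at 0.21.

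Of 20 genes that write, read or excise DNA methylation, 13 were higher and 7 lower (median 0.04). Uhrf1, which recruits the maintenance methyltransferase to newly copied DNA in dividing cells, stood at 5.56, 6.73 and 5.98 CPM in control and 4.04, 4.65 and 4.75 CPM in CIH. Every CIH library was under every control, and the log2 fold change was -0.44 (SE 0.17; 95% interval -0.85 to -0.04; edgeR adjusted p = 1.00). Dnmt1, that maintenance methyltransferase, was picked with its values in view. It showed the same order of groups, at 52.6, 52.3 and 52.8 CPM in control and 48.4, 50.02 and 45.6 CPM in CIH, with a log2 fold change of -0.13 (SE 0.09; edgeR adjusted p = 1.00). The de novo methyltransferase gene Dnmt3b had only 13 to 32 counts per library and a log2 fold change of 0.79 (SE 0.37).

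The flavin-dependent demethylases need oxygen but neither iron nor 2-oxoglutarate. The list of these enzymes and their CoREST partners had 1 of 8 members higher and 7 lower (median -0.08). Rcor3, a CoREST scaffold, stood at -0.16 (SE 0.13) with groups that did not overlap, and the demethylase gene Kdm1a at -0.10 (SE 0.11). Of 23 genes that supply 2-oxoglutarate, ascorbate or iron or clear succinate and fumarate, 8 were higher and 15 lower (median -0.03). Tfrc, the transferrin receptor that brings iron into cells, stood at 87.7, 68.4 and 69.5 CPM in control and 97.2, 89.7 and 106 CPM in CIH. Every CIH library was above every control, by a mean of 0.38 on the log2 scale (SE 0.13; 95% interval 0.06 to 0.69; edgeR adjusted p = 1.00). Markers of endothelium (9 of 9 tested) and of erythroid cells (6 of 6), which express Tfrc strongly as well, also stood higher in CIH. So did markers of oligodendrocytes (7 of 7). The library scores of each list overlapped between the groups. The endothelial score was 0.49, -0.08 and -0.10 in CIH replicates 1, 2 and 3, beside -0.14 to -0.05 in control. CIH replicate 3, the highest for Tfrc, had an erythroid score of -0.26, beside -0.52 to 0.21 in control. The part of these cells in the Tfrc value was not tested. Fh, which encodes fumarate hydratase, stood at -0.20 (SE 0.13; edgeR adjusted p = 1.00).

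**Figure D5:**
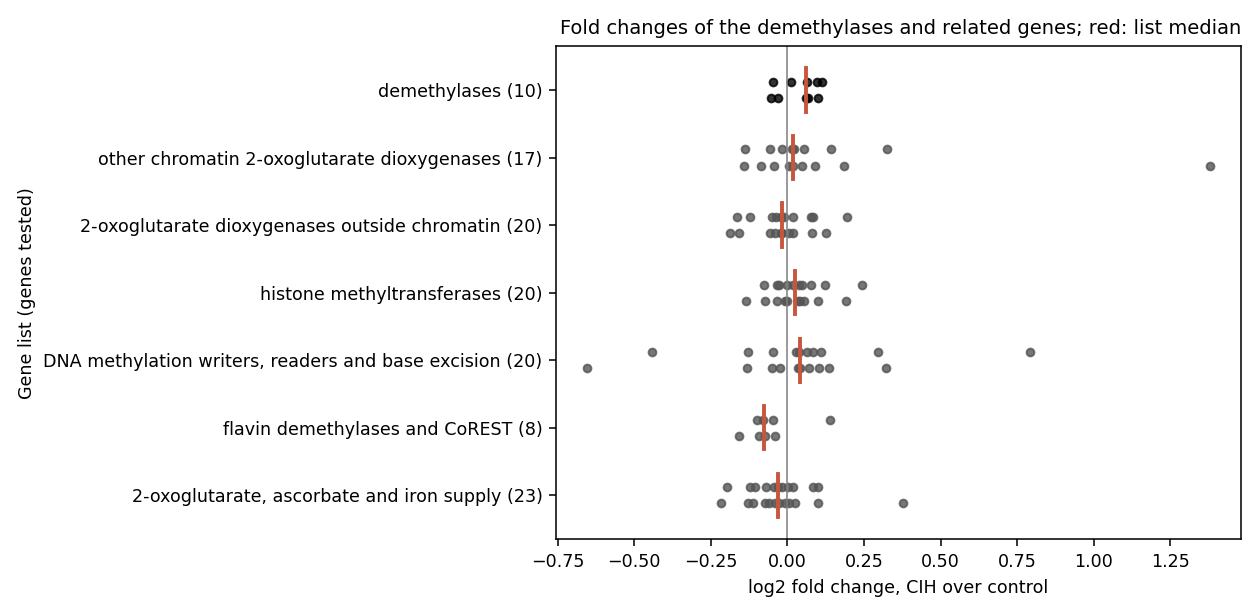
Log2 fold change, CIH over control (horizontal axis), of each tested gene of the demethylases and of 6 related lists; red bars are list medians, numbers in brackets the genes tested. The demethylases lie between -0.05 and 0.11; the point at the far right is Kdm4d, which was at 0 CPM in 3 libraries.

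Defining markers of the labelled tissue were present: summed TPM ran from 375.26 to 888.92 for CA pyramidal genes and from 73.29 to 280.49 for dentate granule genes over the 6 libraries. Markers of neighbouring tissue were also present, with 150.21 to 342.86 TPM for cortex and 5.52 to 65.82 TPM for choroid plexus. CIH replicate 1 had the highest cortex score (0.78) and endothelial score (0.49) and the lowest dentate score. No marker gene was at 0 in all 6 libraries. Without CIH replicate 1 the count of demethylases past the threshold was again 0 and the count higher was 8 of 10. The part of tissue makeup in single values was not otherwise tested.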

How the data were processed

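Hippocampal RNA of 3 control and 3 CIH libraries was sequenced on a BGI system. Among the tools, RSEM 1.2.12, HISAT2 2.2.0 and Bowtie2 2.2.5 are named in the submitters' processing notes, as is the Rnor_6.0 build, without their roles. The annotation and the use of strand or of molecular identifiers: not given in the sources used here. Without strand, reads of overlapping antisense genes cannot be told apart. Per the file headers, the authors deposited estimated counts (not whole in 16.0% of values and rounded here), TPM and FPKM for 26949 genes. The deposited TPM values gave levels and an alternative test, and the deposited FPKM values gave effective lengths only (genes with a mean count of at least 50 and a mean FPKM of at least 1). The small RNA libraries were not used here.

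Counts were tested with edgeR 4.0.16 in R 4.3.3 (quasi-likelihood F test, TMM factors, filterByExpr, Benjamini-Hochberg over 17935 genes, threshold 0.05). SE came from the fold change and F statistic, and 95% intervals from the t distribution. CPM are counts over TMM-scaled totals. Marker scores are mean deviations of log2 CPM (prior count 2). The fit was tested on simulated data, with changed genes drawn from the CPM range of the members (30.8 to 202). At the adjusted threshold it called 26% of 100 genes with a true log2 change of 1 in either direction. Of 100 genes with a true change of 0.5 it called 1%. Alternatives were RLE factors, no filter, a mean count of 50, DESeq2 1.42.0, limma 3.58.1 on log2 TPM (mean above 0.5, pseudocount 1 or 0.1), a replicate block, sample quality weights, the dentate score as covariate, and leaving out each library. Members and lists were chosen with earlier results of these data known. Named genes are the 10 members, the 4 other chromatin dioxygenases and the 2 genes of each other list with the smallest p. Alkbh5 and Dnmt1 were added with their values in view. Promoter sequence is from RefSeq (GRCr8), matched by gene ID for all 10 members. Figures used matplotlib 3.10.9.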

Additional observations from a re-analysis of the deposited data

How the results depend on the processing

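Of 15 alternatives, 0 called a demethylase or a related gene; the smallest adjusted p of a demethylase was 0.80 and the smallest unadjusted p 0.110, both for Kdm5a. Over all genes the count called was 10 with DESeq2, 1 with sample quality weights, 0 to 1 when 1 library was left out (1 without control replicate 3 and 1 without CIH replicate 2), and 0 in the remaining alternatives. The number of demethylases higher in CIH was 6 to 8. Kdm2a, Kdm5a, Kdm6b and Tet1 stayed higher and Tet2 lower in all 15 alternatives. Kdm4a turned to 0.046 with sample quality weights and 0.091 with the dentate covariate, and Tet3 to -0.0042 with limma at either pseudocount. Over the left-out libraries Kdm4a ran from -0.12 to 0.063, Kdm4b from -0.054 to 0.058, Kdm4c from -0.040 to 0.17 and Kdm5b from -0.073 to 0.027, so their signs rest on single libraries. Kdm2a ran from 0.02 to 0.10 and Tet2 from -0.12 to -0.02, and among related genes Uty ran from 0.04 to 0.25, Rcor3 from -0.19 to -0.10, Kdm1a from -0.14 to -0.03, Fh from -0.29 to -0.08 and Dnmt3b from 0.51 to 1.05. The cause of these turns was not tested. No pairing of the libraries by replicate number was seen: deviations of same-numbered libraries correlated at -0.222, -0.0457 and -0.176. Of 6 libraries, 0 were closest to their own number. With 3 libraries per group that also differed in tissue makeup, a pairing could be missed. With the replicate block 0 genes, 0 demethylases and 0 related genes were called, and 7 demethylases were higher. RLE scaling in place of TMM moved the median log2 fold change of all genes by -0.0040, and over all 15 alternatives that median moved by at most 0.013.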
